A study of Drosophila melanogaster with 12 samples.

Results

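Knockdown of Tis11 in SL2 cells was followed by higher mean signals at 36 probe sets beyond a group of genes left out by name, and these 36 are described here. They were chosen from 18769 probe sets by measured values. The mean log2 signal had to be more than 0.5 higher in Tis11 kd than in GFP kd cells without lipopolysaccharide (LPS), and the difference had to be above 0 with LPS. Probe sets of Pxn, Ppn, vir-1, Mvd, Ric, CG15435, CG7115, Kank, Orc4, NimB1, NimB2, Sr-CIII, ATPsyndelta, Atg12 and the Tsp genes were left out by name. Of the 36, 31 are annotated to a single gene and cover 29 genes, with 2 probe sets each for Targ1 and egr, and 5 carry no gene name. Because both Tis11 kd differences chose the members, they are given below as descriptions, with no test.

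Expression was profiled on Drosophila Genome 2.0 arrays in 4 groups, each with 3 samples labelled as biological repeats. SL2 is an established embryonic *Drosophila* cell line with macrophage-like properties. The groups were Tis11 dsRNA with LPS, GFP dsRNA with LPS, Tis11 dsRNA alone and GFP dsRNA alone. Double-stranded RNA was given at 12.5 µg/ml for 4 days in all groups, and LPS, where used, at 10 µg/ml for 4 h. GFP is foreign to these cells, so its dsRNA is the control for the treatment with dsRNA as such. Tis11 itself has no probe set by name in the annotation used here, and how far its own mRNA was depleted was not analysed. All groups come from the same line, and p-values below measure only the spread between these repeats.

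Tis11 is the fly member of a family of zinc finger proteins that also holds mammalian tristetraprolin. These proteins bind AU-rich elements in the 3′ untranslated region of an mRNA and recruit the machinery that shortens the poly(A) tail, after which the mRNA is degraded. LPS preparations commonly contain peptidoglycan, which insect cells sense through the Imd pathway, and the genes of antimicrobial peptides are its best known targets. The arrays record mRNA levels, not decay rates, and in bulk RNA a change in the share of cells that make an mRNA cannot be told apart from a change in its amount per cell.

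The signals are log2 values after RMA, which corrects background, brings the arrays to a common distribution and summarizes the probes of a set. They run from 2.25 to 14.01 over the 12 arrays. Of all probe sets, 61.7% average under 6, a range in which differences are compressed, against 8 of the 36 members. Plasmatocyte markers, the genes of the fly macrophage, were all measured and averaged between 7.20 and 12.05. The 4 fat body and 5 neuron markers measured were all under 6. Lamellocyte markers averaged between 4.83 and 10.48, with 2 of 6 under 6. Crystal cell markers averaged between 3.44 and 9.55, with 2 of 4 under 6. For the plasmatocyte markers, 9 of 10 had a Tis11 kd minus GFP kd value above 0 without LPS, against 49.4% of all probe sets, with a median of 0.26. None of them passed the limma test, and their summed log2 signals overlapped between the groups, spanning 100.03 to 104.9 in Tis11 kd and 95.5 to 101.4 in GFP kd cells. With LPS 6 of 10 were above 0, against 55.3% of all probe sets, and the sums spanned 95.7 to 101.4 in Tis11 kd and 93.6 to 101.4 in GFP kd cells. Pxn, left out of the members by name, is one of these markers. The part of the marker values in the results below was not tested.

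Without LPS, 56 of 18769 probe sets (0.298%) exceeded 0.5, of which 15 were left out by name and 5 because the difference with LPS was not above 0. The 36 members had a median difference of 0.63, a 1.55-fold difference, and ran from 0.50 to 1.33. The median over all probe sets was −0.0015. Just inside the threshold lay a probe set of egr at 0.51, CG34331 at 0.51 and the unnamed 1635591_at at 0.503, and just below it CG13124 at 0.499, myo at 0.499 and dmGlut at 0.494. Probe sets over 0.5 that missed the second condition were CG10764 with 0.83 and −0.19 with LPS, CG13937 with 0.65 and −0.32, the adenylyl cyclase Ac76E with 0.56 and −0.08, CG15695 with 0.53 and −0.01, and the methuselah family receptor mthl6 with 0.51 and −0.09. On the inner side of that second condition stood CG34331 at 0.00, 1635591_at at 0.02 and nvy at 0.02.

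In neither comparison did a probe set of the array pass a limma fit at an adjusted p under 0.05 (0 of 18769). At an unadjusted p under 0.05 without LPS, 164 were higher and 42 lower by limma, and 241 were higher and 157 lower by the methods' t-test. With LPS these counts were 355 higher and 133 lower by limma, and 741 higher and 148 lower by the methods' t-test. Each time higher and lower together stayed under 0.05 of all probe sets. That is the share such a threshold gives where nothing differs and arrays vary independently. The arrays here shared an axis of variation, described below, so the counts do not show that nothing differs. The members thus had higher means after Tis11 kd without having passed a test of that difference.

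In the LPS-treated cells the same 36 probe sets had a median difference of 0.28, from 0.00 to 0.91, against 0.02 over all probe sets. The difference with LPS was the smaller of the pair for 34 members, and NimB3 and yin were the exceptions. The rule asks for more without LPS than with it, so a smaller value with LPS is what such a choice favours and nothing is read from it. A difference above 0.5 with LPS was measured for 8 members, namely Swim, NimB3, yin, 1635549_at, CG2444, 1634786_at, r and Sclp, against 0.0959% of all probe sets. Only members above 0 could enter, where 55.3% of all probe sets lay.

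**Figure D1:**
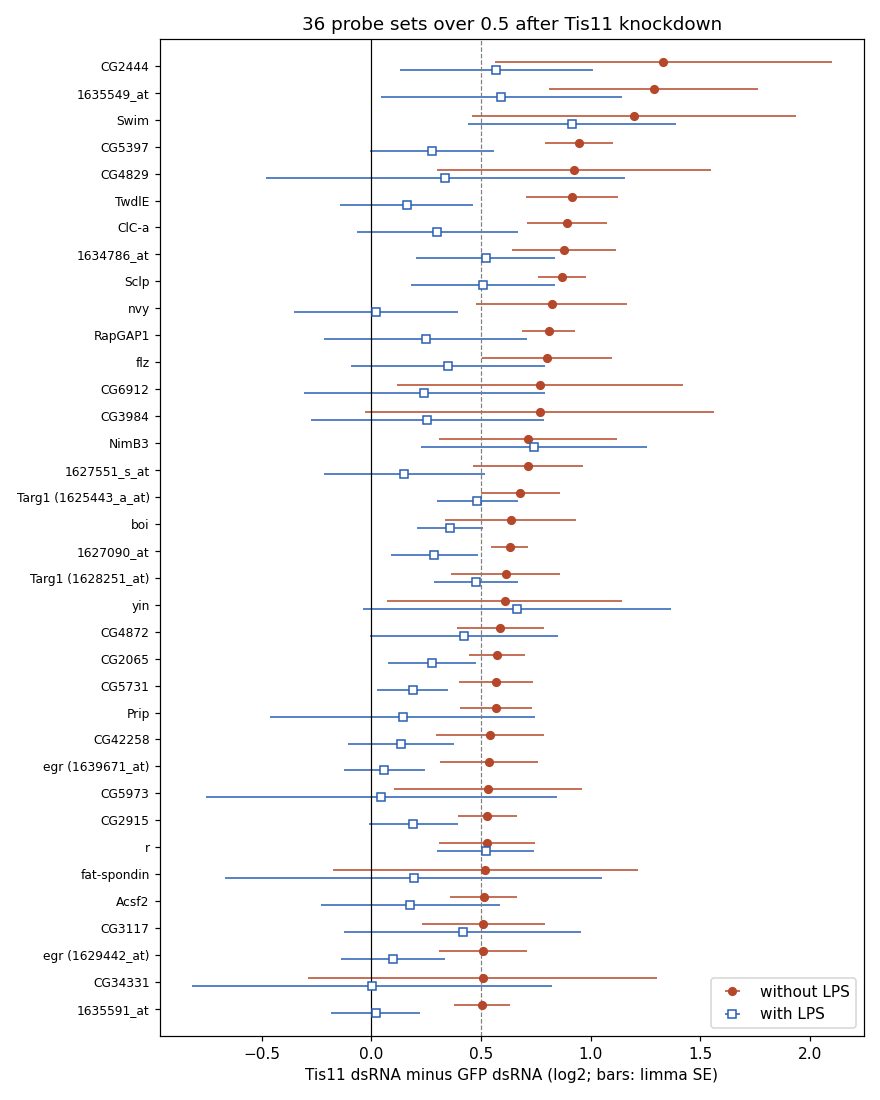
Log2 differences between Tis11 kd and GFP kd (Tis11 kd minus GFP kd) for the 36 probe sets, in order of the difference without LPS, which is shown as filled circles, with the difference with LPS as open squares. Bars are the limma SE over 6 arrays, the dashed line marks 0.5, and the bars of Sclp and CG5397 without LPS are short beside those of CG2444, Swim and CG34331.

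The 3 Tis11 kd arrays lay above all 3 GFP kd arrays without LPS for 17 members, while 2.58% of all probe sets did so. For the other 19 the groups overlapped. Since the rule used those arrays, the count describes which members have separated arrays and supports nothing further. With LPS the groups did not overlap for 2 members, one Targ1 probe set and boi, against 7.77% of all probe sets. Only the Targ1 probe set 1625443_a_at was separated in both, as were 0.213% of all probe sets.

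Of the named genes Sclp had the smallest SE for its difference without LPS. Its log2 signal was 8.44, 8.54 and 8.44 in Tis11 kd cells, against 7.79, 7.49 and 7.54 in GFP kd cells. With LPS it was 8.36, 8.07 and 8.95 in Tis11 kd cells, against 7.44, 8.50 and 7.91 in GFP kd cells. Without LPS the groups were clearly apart, whereas with LPS the second GFP kd array reached above the lower pair of Tis11 kd arrays. The differences were 0.87 (SE 0.11) without LPS and 0.51 (SE 0.33) with LPS.

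Targ1 encodes a terminal ADP-ribose glycohydrolase, an enzyme that takes ADP-ribose off modified proteins, and was measured by 3 probe sets. At 1625443_a_at the signals were 7.87, 8.28 and 8.32 in Tis11 kd cells, against 7.68, 7.58 and 7.17 in GFP kd cells. At this probe set the LPS groups read 8.58, 8.02 and 8.01 in Tis11 kd cells, against 7.90, 7.64 and 7.62 in GFP kd cells. Every Tis11 kd array stood above every GFP kd array, with and without LPS, by 0.48 (SE 0.18) and 0.68 (SE 0.18) in the mean. The second member, 1628251_at, showed 8.20, 8.80 and 8.53 in Tis11 kd cells, against 8.32, 7.93 and 7.44 in GFP kd cells, so the first GFP kd array overlapped. Its differences were 0.61 (SE 0.25) without LPS and 0.48 (SE 0.19) with LPS. The remaining probe set, 1637050_at, averaged 4.92, near background, with differences of 0.43 and 0.16, and was no member. Probe sets of 1 gene share the same RNA and do not count as separate evidence. Of the other 4 measured genes of ADP-ribose turnover, none exceeded 0.5. Parg, which degrades poly(ADP-ribose) chains, differed by −0.00 without LPS and −0.04 with LPS, and Tnks, a tankyrase that builds them, by 0.00 and −0.07.

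**Figure D2:**
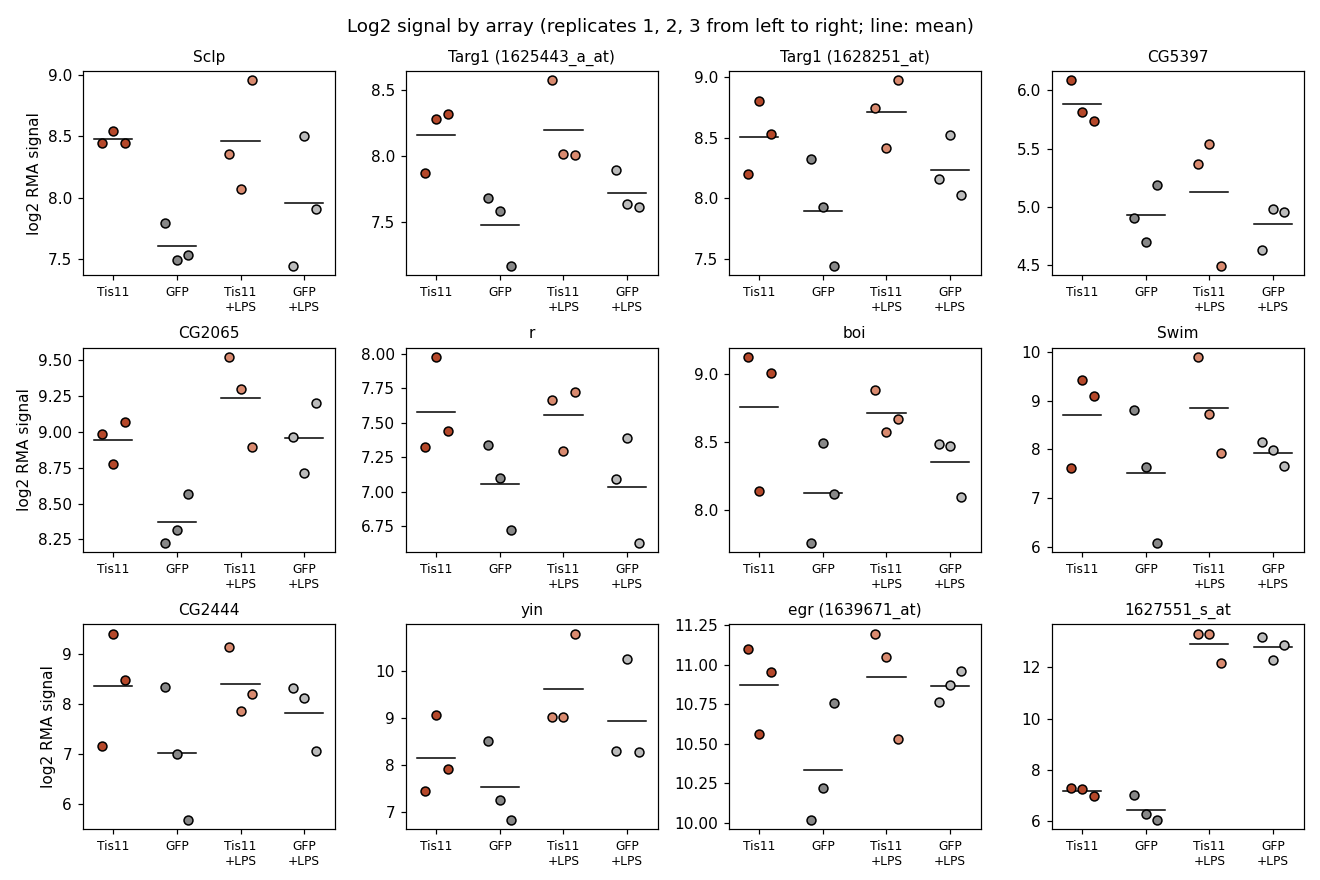
Log2 RMA signal on every array for 12 of the members, one panel each, with replicates 1, 2 and 3 from left to right in each group and a line at the group mean. Sclp, 1625443_a_at of Targ1, CG5397 and CG2065 separate Tis11 kd from GFP kd without LPS, the arrays of Swim, CG2444 and yin spread widely within groups, and 1627551_s_at is high on all 6 LPS arrays.

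Among members whose products are secreted or lie outside the cell, 5 genes, the median difference was 0.80 without LPS and 0.35 with LPS. Swim, a secreted partner of the Wingless ligand, had the largest of these. It read 7.61, 9.42 and 9.09 in Tis11 kd cells, against 8.81, 7.64 and 6.08 in GFP kd cells. With LPS it read 9.90, 8.72 and 7.93 in Tis11 kd cells, against 8.16, 7.99 and 7.65 in GFP kd cells. The repeats covered more than a log2 unit in 3 of the 4 groups, the groups overlapped in both comparisons, and the differences of 1.20 (SE 0.74) and 0.91 (SE 0.47) carry that spread. NimB3, a secreted-type member of the Nimrod family, whose other members include phagocytosis receptors, was at 5.88, 7.29 and 6.59 in Tis11 kd cells, against 6.48, 5.79 and 5.34 in GFP kd cells. Its differences, 0.72 (SE 0.41) without LPS and 0.74 (SE 0.52) with LPS, were nearly the same, though the groups overlapped each time. The serine protease gene flz stood at 6.65, 6.37 and 7.05 in Tis11 kd cells, against 6.16, 6.25 and 5.25 in GFP kd cells, without overlap, a difference of 0.80 (SE 0.30), and of 0.35 (SE 0.44) with LPS. For fat-spondin the second Tis11 kd array, at 9.16, and the first GFP kd array, at 8.55, stood far above the others, and the difference of 0.52 had an SE of 0.70.

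TwdlE belongs to the Tweedle family of cuticle proteins, of which 25 of 26 listed genes were measured and 22 averaged under 6. It was at 4.89, 5.21 and 5.31 in Tis11 kd cells, against 4.07, 4.66 and 3.93 in GFP kd cells. The groups did not overlap, by 0.91 (SE 0.21), but all 6 values lie near background, and with LPS the difference was 0.16 (SE 0.30) with overlap. No other Tweedle gene exceeded 0.5. Of the 25, 7 were above 0 without LPS and 21 with LPS, with medians of −0.05 and 0.13.

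Members in signalling and transcription, 4 genes at 5 probe sets, had a median difference of 0.64 without LPS and 0.10 with LPS. The TNF ligand gene egr, which acts through the JNK kinase cascade, has 2 member probe sets. At 1639671_at it showed 11.10, 10.56 and 10.95 in Tis11 kd cells, against 10.02, 10.22 and 10.76 in GFP kd cells. With LPS the values were 11.20, 11.05 and 10.53 in Tis11 kd cells, against 10.76, 10.87 and 10.96 in GFP kd cells. The third GFP kd array lay inside the range of the Tis11 kd arrays without LPS, and with LPS the third Tis11 kd array was the lowest of the 6. Differences were 0.54 (SE 0.22) without LPS and 0.06 (SE 0.19) with LPS, and the second probe set, 1629442_at, gave 0.51 (SE 0.20) and 0.10 (SE 0.24). Of the 10 measured genes of the ligand-to-JNK branch, egr alone exceeded 0.5, 8 were above 0 without LPS and 3 with LPS, and the medians were 0.10 and −0.01. The receptor wgn differed by 0.26 and −0.00, the kinase gene bsk, which encodes JNK, by 0.15 and −0.03, its phosphatase and target puc by 0.09 and 0.03, and Traf4, an adaptor, by −0.47 and −0.31.

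The gene boi encodes a Hedgehog co-receptor that works beside ihog. Its signals were 9.13, 8.14 and 9.01 in Tis11 kd cells, against 7.76, 8.49 and 8.12 in GFP kd cells. With LPS they were 8.88, 8.58 and 8.67 in Tis11 kd cells, against 8.49, 8.47 and 8.09 in GFP kd cells. One low Tis11 kd array made the groups overlap without LPS, while with LPS all 3 Tis11 kd arrays were above all 3 GFP kd arrays, by 0.36 (SE 0.15), and the difference without LPS was 0.64 (SE 0.30). Among 9 measured genes of Hedgehog reception boi alone exceeded 0.5. For ihog the differences were −0.07 and −0.36, for the receptor gene ptc −0.04 and −0.21, and for smo, which carries the signal onward, 0.01 and −0.25, and 2 of the 9 were above 0 with LPS.

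RapGAP1, whose product switches off the small GTPase Rap1, was at 4.76, 4.42 and 4.52 in Tis11 kd cells, against 3.77, 3.85 and 3.64 in GFP kd cells. These near-background groups were separated by 0.81 (SE 0.12). Its 3 other probe sets, all averaging under 5, gave 0.03, 0.10 and −0.01, so the difference was present at 1 of 4 probe sets of the gene. The corepressor gene nvy, the fly relative of mammalian ETO, showed 5.76, 6.01 and 5.69 in Tis11 kd cells, against 5.57, 5.27 and 4.16 in GFP kd cells. The nearest arrays of the groups were 5.69 and 5.57, and the differences were 0.82 (SE 0.34) without LPS and 0.02 (SE 0.37) with LPS. Over the 12 arrays nvy averaged 4.99, near background.

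Channels and transporters made up 3 genes. The oligopeptide transporter gene yin read 7.43, 9.05 and 7.90 in Tis11 kd cells, against 8.50, 7.24 and 6.83 in GFP kd cells. With LPS it read 9.00, 9.02 and 10.78 in Tis11 kd cells, against 8.30, 10.24 and 8.26 in GFP kd cells. One array per group stood more than a log2 unit above the lowest of its group, and the groups overlapped. The differences were 0.61 (SE 0.54) and 0.67 (SE 0.70) with LPS, and the related CG2930 differed by 0.13 and 0.11. The water channel gene Prip showed 9.32, 9.45 and 9.08 in Tis11 kd cells, against 8.97, 8.44 and 8.74 in GFP kd cells, 0.57 apart (SE 0.16) with no overlap, while with LPS the groups overlapped, with 1 high array in each, 9.92 in Tis11 kd and 10.35 in GFP kd cells. The LPS difference was 0.14 (SE 0.61) and ran from −0.25 to 0.80 as single arrays were left out. A second Prip probe set near background gave 0.09 and −0.19, and Drip, another aquaporin gene, 0.05 and 0.01. The chloride channel gene ClC-a was separated at 1629786_a_at, with 5.36, 4.97 and 5.44 in Tis11 kd cells, against 4.04, 4.58 and 4.47 in GFP kd cells. This probe set averaged 4.70, near background. Its differences were 0.89 (SE 0.18) without LPS and 0.30 (SE 0.37) with LPS, where the groups overlapped. The second probe set of ClC-a, 1640203_at, averaged 5.97 and differed by −0.03 without LPS. The ClC-a difference was thus present at 1 of 2 probe sets, and the relatives ClC-b and ClC-c differed by 0.00 and 0.02.

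Metabolic enzymes and lipid carriers, 6 genes with Targ1, had a median of 0.57 without LPS and 0.28 with LPS. CG2065, of the short-chain dehydrogenase family, read 8.98, 8.78 and 9.07 in Tis11 kd cells, against 8.23, 8.32 and 8.56 in GFP kd cells. With LPS it read 9.52, 9.30 and 8.89 in Tis11 kd cells, against 8.96, 8.71 and 9.20 in GFP kd cells. Its groups were apart without LPS, by 0.57 (SE 0.13), and overlapped with LPS, at 0.28 (SE 0.20). The gene r (rudimentary) encodes the enzyme of the first steps of pyrimidine synthesis. It was at 7.33, 7.98 and 7.44 in Tis11 kd cells, against 7.34, 7.10 and 6.72 in GFP kd cells. The lowest Tis11 kd array lay just below the highest GFP kd array, and the differences were 0.53 (SE 0.22) and, with LPS, 0.52 (SE 0.22). Of the other measured genes of that pathway, Dhod differed by −0.04, r-l by 0.07 and Ctps by 0.10 without LPS.

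Acsf2, an acyl-CoA synthetase gene, showed 7.96, 8.06 and 7.63 in Tis11 kd cells, against 7.53, 7.15 and 7.44 in GFP kd cells, without overlap and with a difference of 0.51 (SE 0.15). Of 12 measured acyl-CoA synthetases no other exceeded 0.5, and bgm differed by 0.30 without LPS and by −0.30 with it. CG5731, whose product resembles alpha-galactosidase, was separated by 0.57 (SE 0.17), at signals from 4.29 to 5.30, near background. CG5973, of the CRAL-TRIO family of lipid-binding proteins, overlapped, with 0.53 (SE 0.43) without LPS and 0.04 (SE 0.80) with LPS. The median of the 11 measured genes of that family was 0.10 without LPS and 0.00 with LPS.

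The lists were built around genes chosen for exceeding 0.5, so 1 such gene in a list follows from that choice. As 0.298% of all probe sets exceed 0.5, the lack of a second is what the background share gives. No second gene of the TNF, Hedgehog, peptide transporter, chloride channel, aquaporin, Tweedle, pyrimidine, acyl-CoA synthetase, ADP-ribose or CRAL-TRIO lists was above 0.5. ClC-a, at its probe set with the higher mean, was itself below 0.5. The same lists held no gene that passed the LPS test described below, which 0.155% of all probe sets passed as higher. Nothing is read about the families from either count.

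No role is given here for 11 genes, Sclp among them. CG2444 had the largest difference of all members, 1.33 (SE 0.77), from 7.17, 9.40 and 8.48 in Tis11 kd cells, against 8.35, 7.01 and 5.70 in GFP kd cells. The groups overlapped, since the highest GFP kd array was well above the lowest Tis11 kd array. CG5397 varied less between arrays, at 6.09, 5.81 and 5.74 in Tis11 kd cells, against 4.91, 4.70 and 5.19 in GFP kd cells. It averaged 5.20 over the 12 arrays, near background. Its groups were apart by 0.95 (SE 0.16) without LPS and overlapped at 0.28 (SE 0.28) with LPS. CG2915 was separated too, with 9.70, 10.09 and 10.08 in Tis11 kd cells, against 9.37, 9.54 and 9.36 in GFP kd cells, a difference of 0.53 (SE 0.13). CG4872, which averaged 5.80, had no overlap either, at 0.59 (SE 0.20). The groups of CG4829, CG6912, CG3984, CG42258, CG3117 and CG34331 overlapped, with differences of 0.93 (SE 0.63), 0.77 (SE 0.65), 0.77 (SE 0.79), 0.54 (SE 0.25), 0.51 (SE 0.28) and 0.51 (SE 0.80). Of these CG3117 averaged 5.22, near background. CG6912 and CG3984 have a single gene between them in the order of the Release 6 plus ISO1 MT annotation.

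Of the 5 unnamed probe sets, 1634786_at, 1627090_at and 1635591_at separated Tis11 kd from GFP kd without LPS. The evenest was 1627090_at, with 8.57, 8.51 and 8.50 in Tis11 kd cells, against 7.96, 7.89 and 7.83 in GFP kd cells. Its repeats differed by less than 0.15 within either group, and its differences were 0.63 (SE 0.09) and, with LPS, 0.29 (SE 0.20). At 1634786_at the values were 10.06, 10.65 and 10.67 in Tis11 kd cells, against 9.56, 9.96 and 9.22 in GFP kd cells, a difference of 0.88 (SE 0.24), with 0.52 (SE 0.32) in LPS-treated cells. Of the 5, the most distant means were at 1635549_at, with 1.29 (SE 0.48), where the lowest Tis11 kd array, at 6.57, lay just under the highest GFP kd array, at 6.61.

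By chromosome, 9 of the 29 named genes (31.0%) lie on X, 8 on 2L, 8 on 2R, 1 on 3L and 3 on 3R. Of all measured genes 15.7% lie on X, 18.5% on 2L, 20.4% on 2R, 19.7% on 3L and 25.0% on 3R. These shares are a description of a list chosen by its values.

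The effect of LPS, averaged over both knockdowns, compares 6 LPS arrays with 6 arrays without LPS in 1 limma fit of all 12. This contrast weighs Tis11 kd and GFP kd arrays equally, so it is a measure that the choice of members did not use. It would be fully independent of both Tis11 kd differences only with uncorrelated arrays of equal spread, and the arrays shared an axis of variation, described below. Over all probe sets 29 passed as higher (0.155%) and 0 as lower, with 377 (2.01%) and 434 (2.31%) at an unadjusted p under 0.05 and 22 and 1 by the methods' t-test after adjustment. The number that passed as higher was 19 without replicate 1 of Tis11 kd, and 18 without replicate 3 of Tis11 kd, replicate 2 of GFP kd or replicate 2 of Tis11 kd with LPS. Of the members 1 passed as higher and 0 as lower. At an unadjusted p under 0.05 limma counted 5 members higher and 4 lower. The methods' t-test counted 4 higher and 2 lower, against 442 higher and 504 lower of all 18769 probe sets. The median LPS difference of the members was −0.04, with 16 above 0 and 20 below 0, against −0.0014 over all probe sets.

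The member that passed was the unnamed 1627551_s_at. Its signals with LPS were 13.30, 13.29 and 12.18 in Tis11 kd cells and 13.16, 12.28 and 12.88 in GFP kd cells. Without LPS they were 7.32, 7.25 and 6.97 in Tis11 kd cells and 7.04, 6.28 and 6.07 in GFP kd cells. All 6 LPS arrays were far above all 6 others, by 6.03 (SE 0.24, adjusted p = 5.8e-07, limma), whereas Tis11 kd and GFP kd overlapped in both states. Only AttD, an antimicrobial peptide gene of the attacin family, had a larger LPS difference on the array, 6.76. The Tis11 kd differences of 1627551_s_at were 0.72 (SE 0.25) without LPS and 0.15 (SE 0.37) with LPS.

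No other member passed. The next largest LPS difference was that of yin, 1.44 (SE 0.49, adjusted p = 0.88, limma), with 1.47 in Tis11 kd cells and 1.41 in GFP kd cells. RapGAP1 had 0.73 (SE 0.26, adjusted p = 0.96, limma), from 5.26, 5.79 and 3.98 with LPS in Tis11 kd cells and 4.59, 4.53 and 5.17 with LPS in GFP kd cells. Without replicate 3 of Tis11 kd with LPS, its lowest LPS array, RapGAP1 passed at 0.98 (adjusted p = 0.031, limma) and the count of members was 2. This was at 1624122_a_at, which averaged 4.52, near background. The other 3 RapGAP1 probe sets had LPS differences of 0.04, 0.08 and 0.02. CG2065 stood at 0.44 (SE 0.12, adjusted p = 0.64, limma). On the lower side nvy had −0.83 (SE 0.28, adjusted p = 0.86, limma), Acsf2 −0.61 (SE 0.24), CG5397 −0.41 (SE 0.17) and CG2915 −0.29 (SE 0.13). CG3984 and CG5973 had −0.94 and −0.82 with SEs of 0.54 and 0.50. Sclp (0.17, SE 0.19) and the 2 Targ1 members (0.14, SE 0.14, and 0.27, SE 0.17) had small LPS differences that did not pass. Within each knockdown, egr at 1639671_at differed with LPS by 0.05 in Tis11 kd cells and 0.53 in GFP kd cells, values that share arrays with the rule and were not tested.

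**Figure D3:**
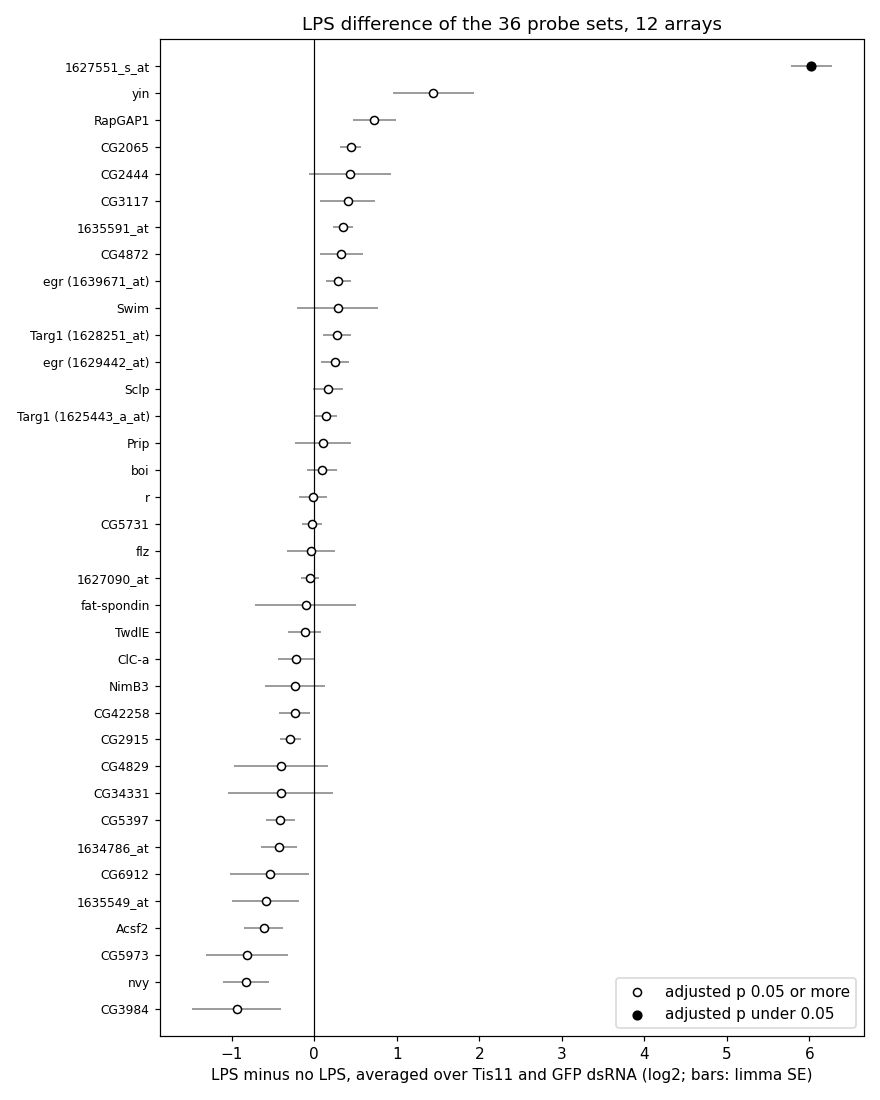
LPS minus no LPS on the log2 scale, averaged over Tis11 kd and GFP kd, for the 36 probe sets with the limma SE over 12 arrays. The filled point is 1627551_s_at at 6.03, the single member that passed, and the rest lie between −0.94 (CG3984) and 1.44 (yin).

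The repeats of a group differed along a shared axis. After the group means were taken out, 1 component held 61.4% of the remaining variance over the 7194 probe sets that average at least 6. Its weights were −0.30, 0.28 and 0.02 on the Tis11 kd arrays, 0.33, 0.03 and −0.37 on the GFP kd arrays, −0.01, −0.35 and 0.36 on the Tis11 kd arrays with LPS and 0.02, 0.40 and −0.41 on the GFP kd arrays with LPS. Along this axis lay a median of 43.2% of the members' variance within groups, against 45.6% for the probe sets that average at least 6 and 25.3% for all probe sets, while 8 of the members average under 6. With the signs given, 25 of the 36 members correlated positively with the weights and 11 negatively. No share over all probe sets was computed for these signs, and nothing is read from them.

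Members differed widely in how closely they followed it. CG34331 had 95.9% of its variance within groups along the axis, CG4829 92.9%, NimB3 92.0%, the Targ1 probe set 1628251_at 90.7% and r 89.4%. CG2915 had 0.69%, boi 4.1% and 1625443_a_at of Targ1 18.3%. More than 50% along the axis was reached by 41.7% of the members and by 46.5% of the probe sets that average at least 6. Of the 17 members whose groups did not overlap without LPS, 1 (CG2065) had more than 50% along the axis, and of the 19 that overlapped, 14 did. The median SD within groups was 0.39 for the 17 and 0.80 for the 19. A member that varies less within groups overlaps less, so these figures describe how the sets divide and are no test. The part of the axis in the Tis11 kd differences was not tested.

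**Figure D4:**
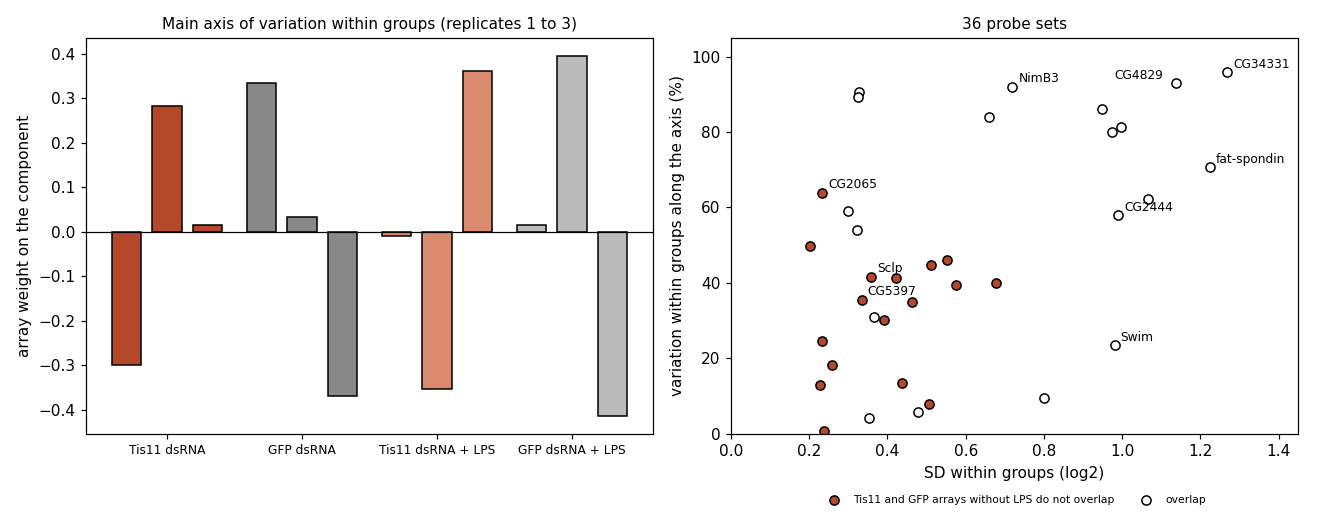
Left, the weight of each of the 12 arrays on the main component of variation within groups. Right, each of the 36 members by its SD within groups on the log2 scale and by the percent of its variance within groups along that component, with filled points for the 17 members whose Tis11 kd and GFP kd arrays did not overlap without LPS; CG34331, CG4829 and NimB3 are near the top, and Sclp and CG5397 near 40% at a low SD.

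The make-up of the list depended on single arrays. The number of probe sets that met the rule was 77 without replicate 1 of Tis11 kd, 67 without its replicate 2, 91, 61 and 55 without replicates 1, 2 and 3 of GFP kd, and 21 without replicate 1 of Tis11 kd with LPS. Of the 36 members, 29, 24, 30, 28, 20 and 21 were among them, in that order. Leaving out each array in turn, 12 members kept a difference over 0.5 without LPS, 16 stayed above 0 with LPS, and 7 did both. These 7 were Sclp, 1625443_a_at of Targ1, CG2065, CG2444, CG5397, 1634786_at and 1627090_at. The same arrays chose the members, so staying in describes the list and supports nothing further. No share over all probe sets was computed for it. Sclp ranged from 0.81 to 0.96 without LPS and from 0.25 to 0.78 with LPS, and CG5397 from 0.83 to 1.07 and from 0.07 to 0.60. CG2444 ranged more widely, from 0.67 to 2.00 and from 0.18 to 0.84, and its groups overlapped with and without LPS. The difference without LPS stayed above 0 for 34 members, and reached −0.19 for CG34331 and −0.14 for fat-spondin.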

How the data were processed

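The authors hybridised RNA of 12 samples to Drosophila Genome 2.0 arrays and deposited a table of RMA log2 values for 18952 probe sets. RMA corrects background, normalizes between arrays by quantiles and compresses low signals. Joint normalization of all 12 arrays is not stated in the sources used here. The values were used as deposited, without 183 control probe sets. Gene names came from the platform's annotation (1 gene for 13647, several for 402, none for 4720), with symbols updated through RefSeq (Release 6 plus ISO1 MT). All 29 member genes matched.

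Tests used limma 3.58.1 (R 4.3.3), with linear models, moderated variances and adjusted p-values (Benjamini-Hochberg over all 18769 probe sets, threshold 0.05). Each Tis11 kd comparison was fitted on its own 6 arrays, and the averaged LPS effect and the interaction on all 12. The fits were tested on simulated data with noise independent between arrays, so the shared axis within groups was not part of it. Of 200 probe sets changed by 0.5, the Tis11 kd fit without LPS on 6 arrays recovered 0 and the averaged LPS fit 102. At a change of 1 they recovered 116 and 176. The changed probe sets were drawn from all probe sets, whose median SD within groups was 0.17, against 0.47 for the members. Recovery at the spread of the members was not simulated. That no probe set passed for Tis11 kd thus says little about differences near 0.5. The members, the 14 gene lists and the 6 marker lists were chosen with earlier results of these data known. Named genes were Sclp and Targ1, the 12 largest differences without LPS and the 8 with LPS, members that passed for LPS, list members with up to 4 relatives, and probe sets beside the thresholds. Other members were named after their values were seen, to account for all 36. Where a list gene had several probe sets, the one with the highest mean was used. Other settings tried were a block for the replicate number, a mean of at least 6, median centring, repeated quantile normalization, an intensity trend, genes in place of probe sets, linear ratios, a threshold of 1, the methods' t-test and leaving out each array. Figures were drawn with matplotlib 3.10.9 in Python 3.11.15.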

Additional observations from a re-analysis of the deposited data

How the results depend on the processing

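With 3 arrays a group and no depth to count, the number of arrays limits the precision, and no two-sided exact test of 3 against 3 can go below 0.1. Of the values recomputed under an alternative, 135 were labelled as kept and 15 as moved. A count was kept within a fixed ratio of the reported count. A median was kept within 0.51, the spread of the members' median between repeats, which exceeds the median with LPS of 0.28. The difference of 1627551_s_at was kept while its adjusted p (limma or t-test) stayed under 0.05. Some values could not change, such as the median without LPS when an LPS array was left out. No median or difference changed direction. The rule gave 3 probe sets at a threshold of 1, and 21 to 91 when single arrays were left out. The median Tis11 kd difference of the members then ran from 0.54 to 0.82 without LPS and from 0.13 to 0.50 with LPS. For the averaged LPS effect, 18 to 38 probe sets passed as higher and 0 to 1 as lower (1 without replicate 1 of Tis11 kd with LPS, and 1 by the methods' t-test), 1 to 2 members passed as higher and 0 as lower, and 1627551_s_at lay between 5.93 and 6.21. With genes in place of probe sets 0 members passed, because 1627551_s_at has no gene name. Its adjusted p ran from 1.4e-07 to 9.4e-06 over the alternatives. Centring each array on its median moved the Tis11 kd differences of all probe sets by 0.02 without LPS and by −0.08 with LPS.

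Arrays with the same replicate number did not always deviate together. Whether the repeats were paired by number is not stated, and the correlations given here do not settle it. Deviations of same-numbered arrays from their group means correlated from −0.76 to 0.82. Without LPS 0 of 3 Tis11 kd arrays correlated best with the GFP kd array of their own number, and with LPS 1 of 3 did. The best correlations were 0.62 to 0.86 without LPS and 0.72 to 0.83 with LPS, mostly between different numbers, a hint from the data and not from the design. The SEs and overlaps given above take no account of this shared variation. With the replicate number as a block, 20 probe sets passed for LPS as higher and 0 as lower, 1 of them a member, and in both Tis11 kd comparisons 0 passed, with 76 higher and 16 lower without LPS and 88 higher and 81 lower with LPS at an unadjusted p under 0.05.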

Other observations

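The interaction of Tis11 kd and LPS, fitted by limma on all 12 arrays, had 0 probe sets past the adjusted threshold. An unadjusted p under 0.05 was met by 305 with a positive and 68 with a negative term, together under 0.05 of all probe sets. Given the axis shared between arrays, this does not show that nothing differs. Of the origin recognition complex, whose subunit Orc4 is among the genes left out by name, 3 of 5 other subunits were measured, none exceeded 0.5, and their median Tis11 kd difference was 0.21 without LPS and −0.00 with LPS. Lamellocyte markers had a median of 0.00 without LPS and −0.23 with LPS over 6 genes, and crystal cell markers −0.10 and −0.19 over 4 genes. Of those 4, PPO2 averaged 9.55, PPO1 7.54, peb 4.81 and lz 3.44. Ovarian somatic markers, 3 of 4 measured, had medians of 0.05 and −0.14. Of the remaining lists, the 9 adenylyl cyclases had medians of 0.00 and 0.01, the 15 methuselah family receptors 0.02 and −0.09, and the 2 ninjurins −0.13 and 0.16.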
